A study of Mus musculus with 12 samples.

Results

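The 1204 regions described here are brown fat promoter peaks that have no counterpart in inguinal fat. They were chosen by position from the 58558 ATAC-seq peaks of mouse brown fat: the midpoint lay 1000 bp or less from the transcription start site assigned in the deposited table, and no base was shared with any of the 39558 peaks of inguinal fat. The rule left 11359 of the 12563 brown fat promoter peaks as shared with inguinal fat. ATAC-seq marks open chromatin with a transposase that cuts and tags accessible DNA, and the number of reads at a site follows its accessibility. The brown fat was taken from 3 flox mice, with floxed alleles of BAF60a (gene Smarcd1), and from 3 AKO mice, which carry the same alleles and Adiponectin-Cre, a transgene that deletes BAF60a in adipocytes. All mice were C57BL/6, each brown fat sample was the frozen tissue of 1 mouse, and the other cell types of the tissue kept BAF60a. The inguinal fat came from cold-acclimated mice of the same 2 genotypes, as 3 aliquots of 1 tissue pool of 6 mice per genotype, and it entered only through its peak positions. Inguinal samples held 4066720 to 6691161 reads in peaks and brown fat samples 6336670 to 27500738, so that a weak peak had a smaller chance of being called in inguinal fat. The tissues also differed in housing temperature, in sequencing instrument and in read length before trimming. Peaks were kept by agreement between mice in brown fat and between aliquots of a pool in inguinal fat. Tissue, depth and these differences cannot be told apart in the choice of these peaks.

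Brown fat burns fatty acids to make heat, through the uncoupling protein UCP1 of the mitochondrial inner membrane, and noradrenaline from sympathetic nerves switches it on through cAMP. Inguinal fat is white fat in which cold induces beige cells with many of the same genes. Promoters are of 2 broad kinds: CpG-rich ones, which are open in most cell types and drive housekeeping and developmental genes, and CpG-poor ones, which tend to open only where the gene is used. BAF60a is a subunit of the SWI/SNF complexes, which move nucleosomes and so change how accessible DNA is.

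The genes that own these peaks included Ucp1, the coactivator gene Ppargc1a, the fatty acid binding protein gene Fabp3, the muscle and mitochondrial regulator gene Perm1 and the brown fat marker gene Zic1. The 200 bases before the RefSeq start of each (GRCm38.p6, sense strand of the gene, 5′ to 3′) are given, and these 5 peaks are described below. Cpt1b and Sgk2, also described below, had no entry among the RefSeq promoters used, so that their sequences are not given. All 200 bases lay inside the peak in each of the 5. Capitals mark matches to the letters searched: TGACG or its complement, the core of the cAMP response element, in the first 3, and in the others the GC box GGGCGG, the EBF letters CCCNNGGG, CCAAT and the E box CACGTG, where N is any base. The windows are chr8:83290148-83290347 (Ucp1, plus strand), chr5:51567726-51567925 (Ppargc1a, minus strand), chr4:130308538-130308737 (Fabp3, plus strand), chr4:156215727-156215926 (Perm1, plus strand) and chr9:91365769-91365968 (Zic1, minus strand).
Ucp1: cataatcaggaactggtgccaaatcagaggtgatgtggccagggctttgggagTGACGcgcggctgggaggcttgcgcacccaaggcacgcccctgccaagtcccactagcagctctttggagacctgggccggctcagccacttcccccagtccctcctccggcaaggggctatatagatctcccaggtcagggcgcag
Ppargc1a: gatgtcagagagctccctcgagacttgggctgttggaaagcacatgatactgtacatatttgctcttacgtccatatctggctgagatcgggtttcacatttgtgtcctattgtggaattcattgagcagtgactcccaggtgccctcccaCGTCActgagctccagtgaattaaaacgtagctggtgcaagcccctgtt
Fabp3: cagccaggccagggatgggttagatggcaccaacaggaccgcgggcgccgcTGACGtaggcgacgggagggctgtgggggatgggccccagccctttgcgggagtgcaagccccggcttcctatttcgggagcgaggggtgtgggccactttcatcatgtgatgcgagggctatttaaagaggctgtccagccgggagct
Perm1: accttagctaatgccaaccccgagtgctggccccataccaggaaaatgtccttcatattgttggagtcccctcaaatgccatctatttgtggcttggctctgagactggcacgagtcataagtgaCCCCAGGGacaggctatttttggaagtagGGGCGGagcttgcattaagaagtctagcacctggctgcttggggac
Zic1: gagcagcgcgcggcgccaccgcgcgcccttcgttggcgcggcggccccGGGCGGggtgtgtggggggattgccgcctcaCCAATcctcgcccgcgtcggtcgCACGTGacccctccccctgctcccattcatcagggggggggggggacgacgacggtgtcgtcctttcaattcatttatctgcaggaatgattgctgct

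The match began 147 bases before the start in Ucp1, 49 in Ppargc1a and 149 in Fabp3. The RefSeq start differed from the start used in the deposited table by 40 bp in Fabp3 and by 31 bp in Zic1. This core is short, and it was found in 17.9% of the 300-base windows centred on the 1204 peaks, in 27.9% of those of shared promoter peaks and in 15.2% of those of all brown fat peaks, so that a match marks letters and not a bound site. The other motifs, searched on both strands in the same windows, separated the classes in both directions. The GC box GGGCGG stood in 36% of the 1204 peaks, 64.3% of shared promoter peaks and 20.7% of all peaks. The ETS letters CCGGAAG stood in 4.73%, 14% and 4.42%, the NRF1 letters GCATGCGC in 1.25%, 3.19% and 1.09%, and the whole cAMP element TGACGTCA in 1.08%, 2.05% and 0.695%. These 4 are motifs of CpG-rich promoters, and the brown-only peaks lay between shared promoters and the peak set as a whole in each. The TATA box TATAAA stood in 4.9%, 3.22% and 8.64%, and a pair of AGGTCA letters with 1 base between and up to 2 mismatches, the DR1 element that PPAR dimers bind, in 4.9%, 2.49% and 6.41%. CCAAT stood in 25.8%, 26.6% and 31.8%, CACGTG in 6.73%, 7.59% and 5.77%, CAGCTG in 20.3%, 16.9% and 22.5%, the EBF letters in 24.8%, 23.7% and 18.7%, and the ERR letters TCAAGGTCA in 0.332%, 0.343% and 0.874%. The GC box contains letters of CpG sites and its share follows base composition.

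Brown-only promoter peaks were narrow and weak next to shared ones. Their median width was 404.5 bp against 948 bp, and their median signal, the mean over the 6 mice of reads divided by each sample's size factor (normalized reads), was 75.5 against 410. All brown fat peaks had a median of 125. The share of promoter peaks without an inguinal counterpart was 69.2% (337 of 487) below 50 normalized reads, 46.6% from 50 to 100, 16.1% from 100 to 200 and 2.5% from 200 to 400. Of the 3962 promoter peaks with 400 to 800 normalized reads 13 were found only in brown fat, and of the 1895 at or above 800 only those of Cpt1b and Arap1 were. Most of the 1204 peaks were therefore among the weakest promoter peaks, and those with high signal were the exceptions; 16 were narrower than 50 bp. At the edge of the rule, the 37 peaks 900 to 1000 bp from the start had a median of 73.3 normalized reads and the 50 brown-only peaks at up to 1100 bp a median of 74.5.

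**Figure D1:**
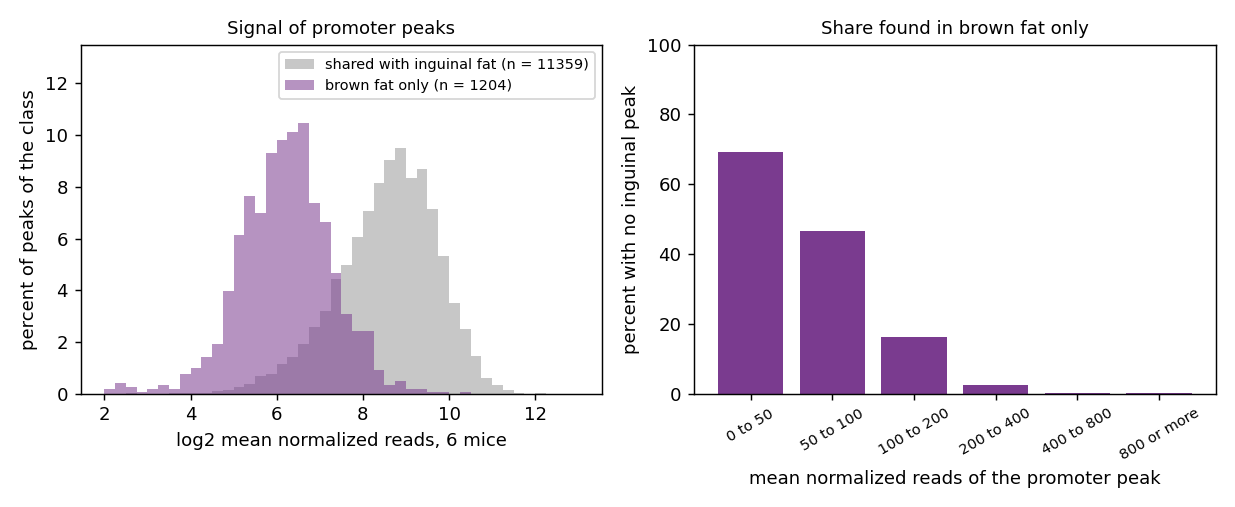
Left, distribution of the log2 mean normalized reads of promoter peaks in 6 brown fat samples (x axis) as percent of each class (y axis); right, percent of promoter peaks with no inguinal peak (y axis, bars) by mean normalized reads (x axis). The brown-only peaks had a median of 75.5 normalized reads against 410, and their share fell from 69.2% to 0.106% over the bins.

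The 1204 peaks belonged to 1153 genes, of which 1105 had 1 such peak, 45 had 2 and 3 had 3. The 3 were Gdnf, a neurotrophic factor gene, Lif, a cytokine gene, and Speg, a muscle kinase gene, all with peaks of 9.46 to 71.2 normalized reads. For 128 genes (11.1%) another promoter peak was shared with inguinal fat. For 678 genes (58.8%) the inguinal table assigned at least 1 peak anywhere to the gene, and for 475 it assigned none. The nearest inguinal peak was a median of 14503 bp away, and 61 of the 1204 peaks had one within 1000 bp. By midpoint, 554 peaks lay in exons, 408 in introns and 242 outside genes (GENCODE M21), and 53.2% covered an annotated start against 94.5% of the shared promoter peaks. Protein-coding genes owned 85.7% of them against 95.5% of shared ones, long noncoding RNA genes 8.8% against 3.05% and microRNA genes 4.24% against 0.722%. One peak belonged to Terc, the RNA of telomerase, with 50.3 normalized reads.

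Base composition placed these peaks between shared promoters and the rest. In 300 bases around the midpoint the median GC content was 59.3%, against 66.3% in shared promoter peaks and 52.3% in all peaks, and the median ratio of observed to expected CpG was 0.487 against 0.819 and 0.252. A CpG-rich window, with a ratio of 0.6 or more and at least 50% GC, was found in 462 of them (38.4%) and in 77.4% of shared promoter peaks. The gap was also present at like signal: at 200 to 400 normalized reads the median ratio was 0.364 in 84 brown-only peaks and 0.809 in the shared ones, and at 50 to 100 it was 0.495 and 0.666.

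**Figure D2:**
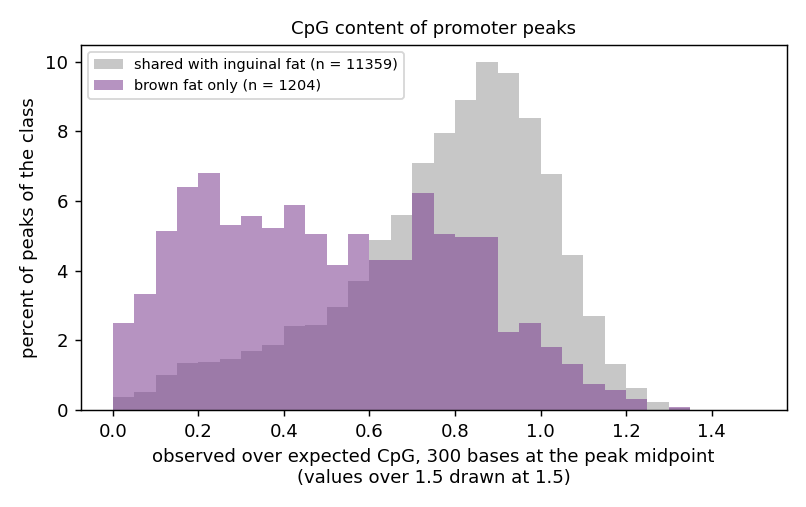
Distribution of the ratio of observed to expected CpG (x axis) in 300 bases around the midpoint of promoter peaks, as percent of each class (y axis). Shared peaks centred on a median of 0.819, while brown-only peaks spread over low and high values around a median of 0.487.

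Housekeeping families owned few of these peaks or none. Nuclear genes of oxidative phosphorylation owned 79 shared promoter peaks and 0 brown-only ones, and cytosolic ribosomal protein genes 64 and 0. SWI/SNF subunit genes owned 25 shared peaks and 1 brown-only peak, that of Actl6b, the neuronal actin-like subunit, and genes named as zinc finger proteins 348 and 18, of which Zkscan14, Zfp217 and Zfp57 had the highest signal. Hox genes, which set position along the body axis, went the other way, with 7 shared and 10 brown-only peaks, and other transcription factor genes of body position owned 32 and 15. Cell surface and transport families were in between: solute carrier genes owned 193 shared and 38 brown-only peaks, with Slc36a2, Slc24a3 and Slc44a5 highest, and potassium, sodium and calcium channel genes 74 and 26, with Cacng4, Kcna2 and Kcnf1 highest. Cadherins and protocadherins owned 14 and 3 (Cdhr1, Cdh3 and Cdh1), and keratin and keratin-associated genes 1 and 4 (Krtap16-1, Krt78, Krt7 and Krt72). Olfactory and vomeronasal receptors owned 4 and 4, and small nucleolar and spliceosomal RNAs 7 and 1. MicroRNAs, matched by symbol, owned 79 and 51, and genes with only a Gm or Rik symbol 562 and 137. No enrichment test was run, and the lists were not matched on signal, with which the brown-only share moved.

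Before the genotypes are compared, the samples need a description. The targeted gene was read first: its own promoter peak was shared with inguinal fat and not lower in AKO (437 ± 60.5 normalized reads in flox and 442 ± 47.5 in AKO; SD, n = 3), whereas a peak inside the gene, 2030 bp from its start, held 136, 201 and 185 normalized reads in flox mice 1 to 3 and 23.7, 57.9 and 26.9 in AKO mice, so that all 3 AKO mice were below all flox mice as their labels say. The first principal component of the whole table (PC1, 55.6% of the variance) put AKO mouse 2, the sample with the fewest reads, at 112.5 and flox mouse 1, with the most reads, at −98.2, and the other 4 mice between −41.8 and 14.6. The brown-only promoter peaks moved with it. Their median was 50.7, 59.9 and 75 normalized reads in flox mice 1 to 3 and 74.2, 103 and 72 in AKO mice 1 to 3, and they took 0.677% of the reads in peaks in flox mouse 1 and 1.26% in AKO mouse 2. AKO mouse 2 was the highest sample at 782 of the 1204 peaks and flox mouse 1 the lowest at 629. The medians of shared promoter peaks ran the other way, from 458 in flox mouse 1 to 369 in AKO mouse 2. The study entered PC1 as a covariate in brown fat, and values are given with and without it. In whole tissue, fewer nuclei of a type and less accessibility per nucleus cannot be told apart.

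**Figure D3:**
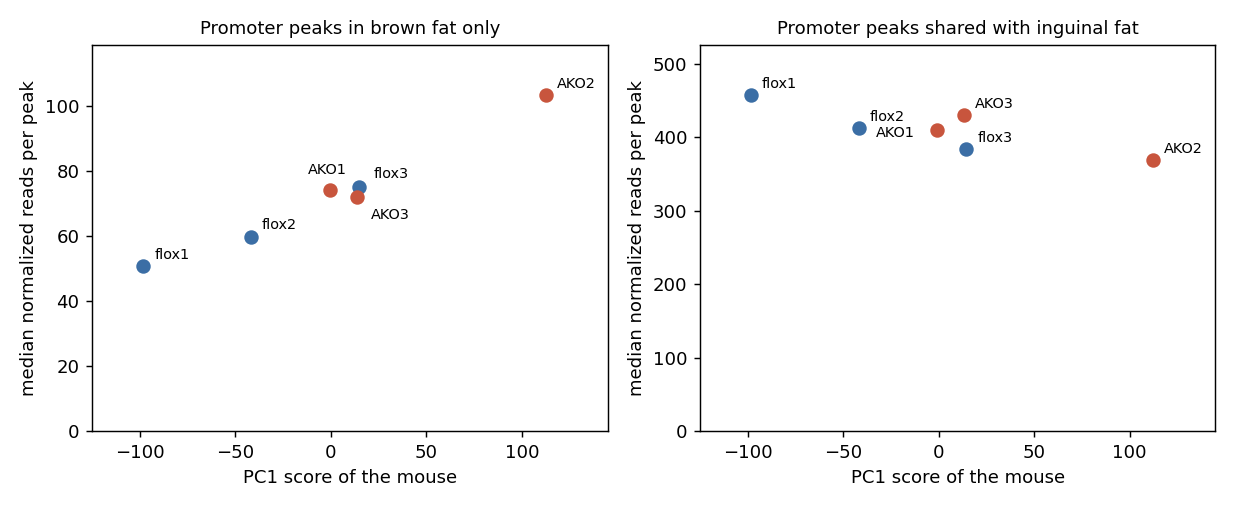
Median normalized reads per peak (y axis) against the PC1 score of each mouse (x axis), for promoter peaks found only in brown fat (left) and shared with inguinal fat (right), flox in blue and AKO in red, 3 mice each. The brown-only median went from 50.7 in flox mouse 1 to 103 in AKO mouse 2, and the shared median from 458 to 369.

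The genotype comparison asked whether loss of BAF60a changed accessibility at these promoters. DESeq2 called 5 of these promoter peaks lower in AKO, of which that of Ucp1 alone was called in all 6 fits with a mouse left out. The 1204 peaks as a whole were centred on no change with PC1 in the model but not without it. PC1 and genotype overlapped, so that a shift common to these peaks cannot be assigned to either. In limma with PC1 the median log2 fold change (AKO minus flox) was 0.02, against 0.01 over all peaks. Limma called 0 of the 1204 peaks lower and 0 higher at an adjusted p under 0.1, the false discovery rate the study used, and it called 0% of all peaks in either direction; the smallest adjusted p was 0.417. At an unadjusted p under 0.05, 70 were lower (5.81%; 5.59% of all peaks were) and 58 higher (4.82%; 3.46% of all peaks were). The DESeq2 fit, with PC1 and on the recovered whole reads, called as lower those of Ucp1, Cpt1b, Perm1, Sgk2 and 4930547E08Rik (0.415%; 0.217% of all peaks), and 1 higher, that of Kng2 (0.0831%; 0.0803% of all peaks). DESeq2 gave no adjusted p for 543 of the 1204, since its filter on low counts left them out.

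Without PC1 the picture of the whole set changed. The median log2 difference was then 0.41 (−0.01 over all peaks), 959 of the 1204 differences (79.7%) were positive, and in 232 peaks all AKO mice were above all flox mice (19.3%; 8.77% of all peaks) while in 45 all AKO mice were below (3.74%; 8.84% of all peaks). Without AKO mouse 2 the median was 0.25, with 252 peaks above (20.9%; 11.4% of all peaks) and 78 below (6.48%; 12.9%), and without flox mouse 1 it was 0.31. Below 400 normalized reads, shared promoter peaks of like signal had medians near those of brown-only ones. Without PC1, peaks under 50 normalized reads had a median of 0.6 if brown-only and 0.51 if shared, and those of 200 to 400 normalized reads 0.08 and 0.01. At 400 to 800 normalized reads the classes parted. The 13 brown-only peaks had a median of −0.289 and the shared ones −0.115 without PC1, and −0.277 and 0.125 with it. The 462 CpG-rich peaks had a median of 0.08 with PC1 and 0.59 without, and the other 742 peaks −0.02 and 0.27. The 6 peaks called by DESeq2 with PC1 were all among the 742. DESeq2 without PC1 called 7 lower and 25 higher of the 1204. The share of all peaks that this fit called is not given, so that these counts are not read as particular to these peaks.

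**Figure D4:**
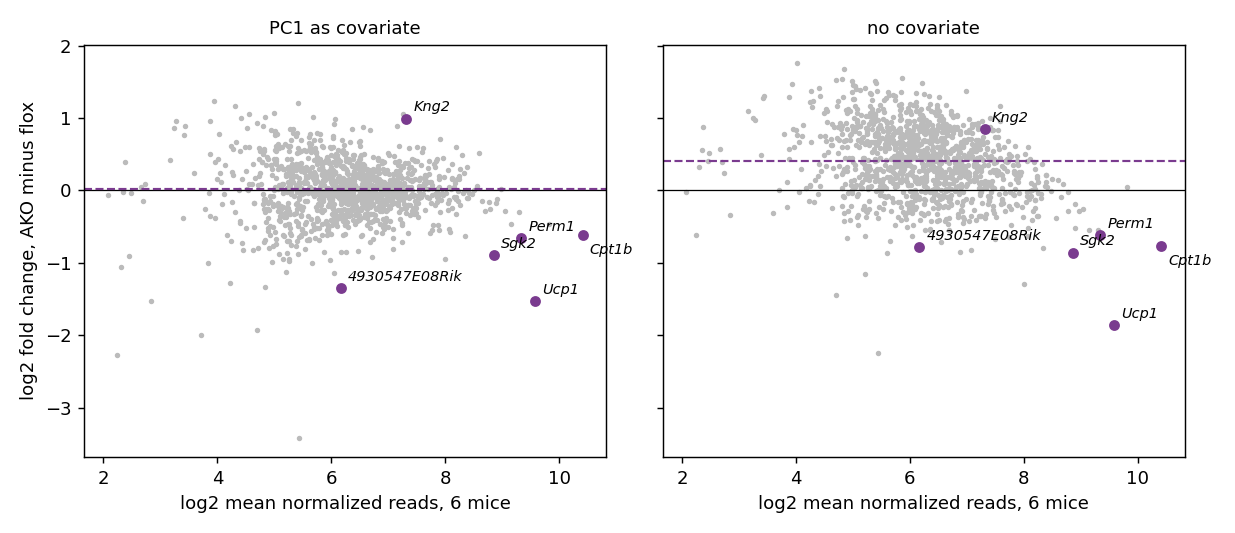
Log2 fold change of the 1204 brown-only promoter peaks (y axis, AKO minus flox, limma) against log2 mean normalized reads (x axis), with PC1 as covariate (left) and without (right); purple points are the 6 peaks called by DESeq2 with PC1, and the dashed line is the median. The median was 0.02 with PC1 and 0.41 without.

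Cpt1b, the muscle-type carnitine palmitoyltransferase that admits long-chain fatty acids to mitochondria, had the strongest of all these peaks (chr15:89425319-89427004, midpoint in an intron, 299 bp upstream of the start used). It held 1842, 1703 and 1589 normalized reads in flox mice 1 to 3 and 1075, 919 and 1008 in AKO mice. All AKO mice were below all flox mice, and the means were 1711.4 ± 127 and 1001.0 ± 78.2 (SD, n = 3). The log2 fold change was −0.62 ± 0.17 (SE) with an adjusted p of 0.463 in limma and 0.00487 in DESeq2. The inguinal table assigned no peak to Cpt1b, although an inguinal peak lay 2135 bp away. The other brown fat peak assigned to the gene was distal and also without an inguinal counterpart.

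Ucp1 (chr8:83289980-83290774, covering the start) held 1556, 1247 and 816 normalized reads in flox mice and 363, 315 and 285 in AKO mice, with no overlap. Its log2 fold change was −1.52 ± 0.27 (SE), with an adjusted p of 0.417 in limma and 9.42e-09 in DESeq2, and DESeq2 called it in all 6 fits with a mouse left out. The inguinal table held 3 peaks assigned to Ucp1, the nearest 11126 bp from this one, so that the cold-exposed inguinal tissue had peaks at the locus but none over the start.

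Perm1, a regulator of oxidative genes named for muscle and driven by PGC-1 and ERR, held 783, 802 and 758 normalized reads in flox mice and 495, 545 and 489 in AKO mice in a peak of 1723 bp (chr4:156215592-156217314). The flox mice differed among themselves by less than the gap to the AKO mice, and the log2 fold change was −0.66, with an adjusted p in DESeq2 that fell under 0.1 in only 1 of 6 fits with a mouse left out (0.0635 without AKO mouse 2, otherwise up to 0.668). It was the sole brown fat peak assigned to Perm1, and the inguinal table assigned none. Sgk2, a serum and glucocorticoid regulated kinase gene, held 662, 580 and 538 in flox and 350, 384 and 257 in AKO (chr2:162986062-162987607, 647 bp upstream), a log2 fold change of −0.89. DESeq2 called Sgk2 in 2 and Cpt1b in 3 of the 6 fits with a mouse left out, losing both without flox mouse 2, flox mouse 3 or AKO mouse 1 and Sgk2 also without AKO mouse 3. 4930547E08Rik, a long noncoding RNA gene, held 63.8, 87.9 and 123 in flox and 47.4, 67.6 and 41.3 in AKO. Its groups overlapped, its log2 fold change was −1.34 with PC1, and DESeq2 called it in 0 of 6 fits with a mouse left out and not without PC1 (adjusted p 0.287).

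Kng2, a kininogen gene that liver expresses, was the peak called higher. It held 129, 101.2 and 110 normalized reads in flox mice and 206, 189 and 218 in AKO mice (chr16:23028969-23029359), with every AKO mouse above every flox mouse and a log2 fold change of 0.99. DESeq2 called it in 0 of 6 fits with a mouse left out. Kng2 lies 115 kb from the promoter peak of Adipoq, the gene whose regulatory sequence drives Cre in the AKO mice and which the flox mice do not carry as a transgene. All 15 brown fat peaks from Kng2 to Adipoq had a positive log2 fold change, 12 had an unadjusted p under 0.05 in limma (3.46% of all peaks were higher at that p), and in 11 all AKO mice were above all flox mice (8.77% of all peaks). The part of the transgene in these values was not tested.

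**Figure D5:**
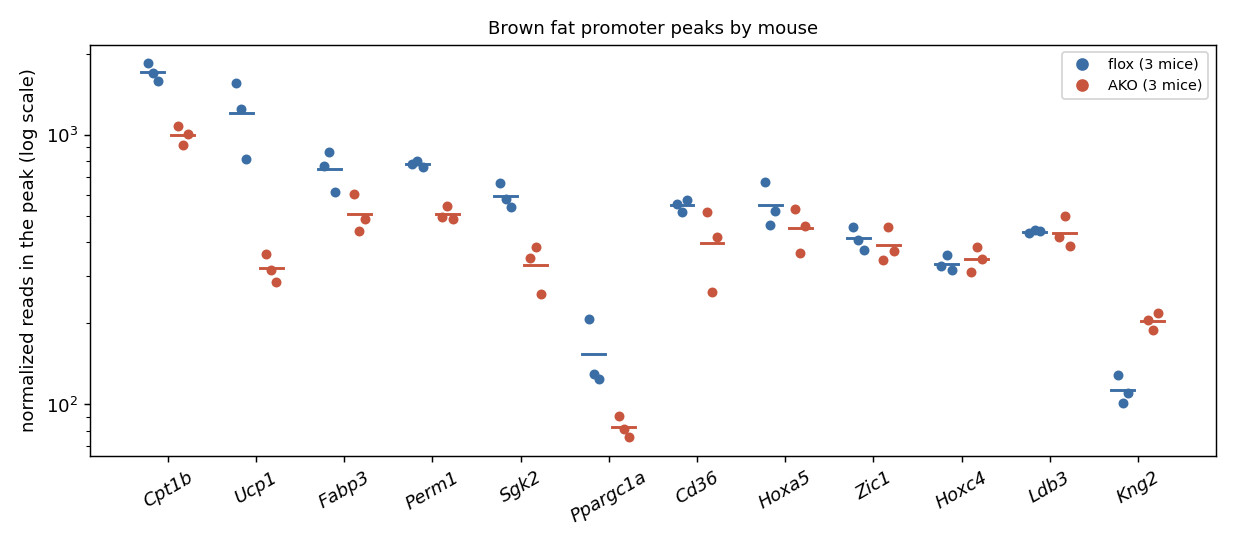
Normalized reads (y axis, log scale) in 12 brown-only promoter peaks, each point 1 mouse and each line the mean of 3, flox in blue and AKO in red. The groups did not overlap at Cpt1b, Ucp1, Fabp3, Perm1, Sgk2, Ppargc1a and Cd36, where AKO was below, and at Kng2, where AKO was above, and they overlapped at Hoxa5, Zic1, Hoxc4 and Ldb3.

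The thermogenic list of 48 genes was chosen with earlier results of these data known. Its promoter peaks numbered 36 shared and 7 brown-only. The 7 had a median log2 fold change of −0.30 (0.02 over the 1204), with 6 negative. In 4 all AKO mice were below all flox mice, as in 3.74% of the 1204 and 8.84% of all peaks. The 7 were stronger than most, with a median of 401 normalized reads against 75.5 over the 1204. The 13 brown-only peaks of 400 to 800 normalized reads, some of the 7 among them, had a median log2 fold change of −0.277. The −0.30 is therefore not read as particular to this list. DESeq2 called 2 of the 7 lower, Ucp1 and Cpt1b (0.217% of all peaks were), and limma 0 (0% of all peaks). Fabp3, a fatty acid binding protein of oxidative tissues, held 763, 867 and 614 in flox and 601, 438 and 489 in AKO, which came close to overlapping, and its log2 fold change of −0.30 ± 0.22 (SE) had an adjusted p of 0.813 in DESeq2. Ppargc1a encodes PGC-1α, the coactivator of mitochondrial genes, and its brown-only peak stood at the alternative upstream start that β-adrenergic signalling is known to use. It held 207, 130 and 124 in flox and 90.7, 81.1 and 75.8 in AKO, with a log2 fold change of −0.58 ± 0.25 (SE) and adjusted p-values of 0.56 in limma and 0.784 in DESeq2. The peak at the other Ppargc1a start was shared with inguinal fat, 13489 bp away. Zic1, a transcription factor gene that marks classical brown fat, held 455, 409 and 375 in flox and 343, 454 and 369 in AKO, with overlapping groups, and the nearest inguinal peak was 137691 bp away. Esrrg, an orphan nuclear receptor gene of oxidative metabolism, held 82.8 to 119 in flox and 84.5 to 151 in AKO, and S100b, which encodes a calcium-binding protein of brown adipocytes and Schwann cells, 207 to 349 and 234 to 297. Of the list of fatty acid oxidation and TCA cycle genes, 39 promoter peaks were shared and Cpt1b alone was brown-only.

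Of adipocyte lipid genes 39 promoter peaks were shared and 2 were brown-only. Cd36, the fatty acid translocase, held 554, 517 and 574 in flox and 515, 261 and 417 in AKO at a second start (chr5:17835608-17836782), and flox mouse 2 and AKO mouse 1 were nearly level. Its log2 fold change was −0.17 with PC1 and the peak at its other start was shared. Acacb, the mitochondrial acetyl-CoA carboxylase that restrains fatty acid oxidation, held 186 to 382 in flox and 220 to 347 in AKO, with a log2 fold change of 0.37. Other peaks of high signal belonged to genes outside these lists. Arap1, a GTPase-activating protein, held 596, 994 and 1065 in flox and 643, 1111 and 971 in AKO at one of several Arap1 promoter peaks, of which the others were shared. Tmem171 held 507 to 670 in flox and 432 to 562 in AKO, and Prkaca, the catalytic subunit of protein kinase A, which carries the cAMP signal in brown fat, 477 to 560 and 402 to 532. The groups overlapped in these 3, and DESeq2 called none of them.

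Hox genes and other transcription factor genes of body position owned 10 and 15 of the peaks. None of their peaks was called by genotype, where limma called 0% of all peaks and DESeq2 0.217% lower and 0.0803% higher. A count of 0 among so few peaks is near those shares. The 10 Hox peaks lay at Hoxa2, Hoxa5, Hoxa13, Hoxc4, Hoxc8, Hoxd1, Hoxd3, Hoxd10, Hoxd11 and Hoxd13 and had 49.2 to 501 normalized reads. Hoxa5, the highest, held 668, 464 and 523 in flox and 530, 363 and 461 in AKO, and Hoxc4 326, 358 and 316 and 310, 382 and 345. Their median log2 fold change was 0.10 with PC1 and 0.45 without, with 0 called by limma or DESeq2, 0 lower and 0 higher at an unadjusted p under 0.05 in limma, and 2 with every AKO mouse above every flox mouse (19.3% of the 1204 and 8.77% of all peaks were so). The 15 peaks of transcription factor genes of body position included Zic1, Six2, Zic2, Tbx2, Tcf15, Dlx5, Dlx6, Sim2 and Mkx. Their median log2 fold change was 0.16 with PC1 and 0.47 without. In 7 of the 15 all AKO mice were above all flox mice, against 19.3% of the 1204 and 8.77% of all peaks. Most of the 15 were CpG-rich, and 122 of the 462 CpG-rich peaks were so, against 110 of the other 742. AKO mouse 2, the sample that stood apart, was the highest of all in Tbx4 (29.3, 37.7 and 58.2 in flox, 88.7, 176 and 68.1 in AKO) and in Nkx3-2 (14.6, 20 and 14.2 in flox, 30.9, 88.9 and 30.7 in AKO). Tbx4 patterns the hindlimb and Nkx3-2 the axial skeleton.

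Each list of markers of other cell types owned 1 to 5 brown-only peaks. The list medians ran from 48.6 (epithelial) to 117 (skeletal muscle) normalized reads, against 75.5 over the 1204. Brown-only peaks made up 7.14% (fibroblast) to 100% (lymphoid) of a list's promoter peaks, and 1204 of 12563 over all promoter peaks. Skeletal muscle genes owned 5 brown-only and 10 shared promoter peaks, and Ldb3, a Z-disc protein gene, was the highest with 431, 442 and 439 in flox and 417, 498 and 387 in AKO; Myl1, Mef2c and Tnni1 ranged from 4.7 to 195. Myl1 had 2 of the 5 peaks. Nerve and Schwann cell genes owned 4 (S100b, Rbfox3, Hand2 and Slc18a2), endothelial genes 4 (Icam2, Tie1, Flt4 and Prox1), mural genes 3 (Heyl, Cnn1 and Myocd), epithelial genes 5 (Foxa1, Krt7, Dsg2, Esrp1 and Cdh1), lymphoid genes 2 (Tbx21 and Prf1), myeloid genes 1 (Tyrobp) and fibroblast genes 1 (Wt1). The shared promoter peaks of these lists numbered 15, 13, 11, 7, 0, 4 and 13. Tyrobp, an adaptor of myeloid receptors, held 46.5, 87.2 and 128 in flox and 73.2, 216 and 119 in AKO, and Rbfox3, a neuronal splicing factor gene, 36.1, 45.8 and 77.6 and 86.6, 203 and 87.3. The highest sample was AKO mouse 2 in both, as in 782 of the 1204 peaks, and the median log2 fold change of the nerve list was −0.08 with PC1 and 0.80 without. None of the peaks of these lists was called by limma (0% of all peaks) or DESeq2 (0.217% of all peaks lower and 0.0803% higher). The part of other cell types in the differences without PC1 was not tested.

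MicroRNA genes owned 51 of the peaks, 49 genes in all, and 40 of them had a mature sequence at the same locus in the RefSeq table. Those of the highest peak, Mir6715, and of the one pair of genes with the same seed, Mirlet7c-2 and Mir1961, are given with bases 2 to 8, the seed that pairs with target messages, in capitals (GRCm38.p6): let-7c-5p at chr15:85706616-85706637, plus strand, miR-1961 at chr5:92788465-92788481, minus strand, and the 2 arms of miR-6715 at chr19:55192678-55192700 and chr19:55192714-55192734, plus strand.
let-7c-5p: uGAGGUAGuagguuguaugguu
miR-1961: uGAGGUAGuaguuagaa
miR-6715-5p: aCAGGCACcacagguuugagcau
miR-6715-3p: cCAAACCAggcgugccugugg

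The 63 mature sequences had 62 seeds, and let-7c-5p and miR-1961 shared GAGGUAG. The peak assigned to Mirlet7c-2 held 311, 314 and 303 normalized reads in flox and 232, 205 and 345 in AKO, with overlapping groups, and that of Mir1961 19.4 to 40.8 and 35.5 to 54.1. Mir6715, whose hairpin lies inside its peak, held 505, 398 and 329 in flox and 269, 249 and 187 in AKO, every AKO mouse below every flox mouse, with a log2 fold change of −0.63 ± 0.28 (SE) and an unadjusted p of 0.0562 in limma. A microRNA within a host gene need not own the start at which the peak lies. Of the 51 peaks 3 were lower and 5 higher at an unadjusted p under 0.05 in limma (5.59% and 3.46% of all peaks), and the median log2 fold change was 0.02. In 3 all AKO mice were below all flox mice (8.84% of all peaks) and in 11 above (8.77% of all peaks, 19.3% of the 1204). DESeq2 called 0 of the 51 (0.217% of all peaks lower and 0.0803% higher).

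The smallest p-values outside the genes described belonged mostly to weak peaks. In limma with PC1 the 10 lowest p-values among peaks lower in AKO were those of 4930547E08Rik, Shisa9, Cldn22, Eml1, Ucp1, Pdgfrl, Pde8b, Trpc4, Adh6-ps1 and Zfp488. Only Ucp1 and Adh6-ps1 of them had groups that did not overlap (AKO was below in 3.74% of the 1204 and 8.84% of all peaks). Adh6-ps1, an alcohol dehydrogenase pseudogene, held 165, 178 and 175 in flox and 109, 92.7 and 89.2 in AKO. In Trpc4, Pdgfrl, Pde8b and Shisa9 the AKO mouse 2 value was above every flox mouse, and the fold change depended on the covariate. Trpc4, a cation channel gene, held 12.5, 17 and 24.6 in flox and 8.25, 38.6 and 11.5 in AKO, a log2 fold change of −1.27 with PC1 and −0.15 without. The 10 lowest among peaks higher in AKO were those of Ptgis, Kng2, Mir7016, Nell1, Lrrc38, Krt72, 2200002D01Rik, 9530082P21Rik, Abr and Cxcl5. In all 10 all AKO mice were above all flox mice (19.3% of the 1204 and 8.77% of all peaks). Both sets of 10 were picked by p-value from these same values, so that the separation of their groups is no further evidence. Ptgis, the prostacyclin synthase gene, held 13.1, 16.3 and 18.1 in flox and 38.1, 63.7 and 41.3 in AKO, a log2 fold change of 1.07, and Cxcl5, a neutrophil chemokine gene, 6.27 to 10.4 and 17.5 to 27. Of the 38 peaks of solute carrier genes 4 were lower and 2 higher at an unadjusted p under 0.05 in limma (5.59% and 3.46% of all peaks). In 1 of the 38 all AKO mice were below all flox mice and in 10 above, against 3.74% and 19.3% of the 1204 and 8.84% and 8.77% of all peaks. Slc24a3, a sodium, calcium and potassium exchanger gene, held 225, 252 and 286 in flox and 204, 174 and 167 in AKO.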

How the data were processed

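ATAC-seq was run on nuclei of frozen brown fat (3 flox and 3 AKO mice) and of inguinal fat aliquots. The authors mapped reads to mm10 with BWA 0.7.17-r1188, removed duplicates with Picard 2.8.14, called broad peaks with MACS2 2.1.1.20160309, counted reads in the union of peaks and tested them with DESeq2 1.20.0. The signal values deposited by the authors are read counts after division by the size factor of each sample. The fold changes, p-values and adjusted p-values of the deposited tables are the authors' own comparison and were not used. Multiplying by the size factor gave whole reads for 100% of values (within 0.01).

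Members were found by position (distance of 1000 bp or less, no shared base with an inguinal peak), and 0 columns of sample values were left unused. The members and all gene lists were chosen with earlier results of these data known. File starts count from 0 and were raised by 1. The main test was limma 3.58.1 on log2(normalized reads + 1) over all 58558 brown fat peaks, with PC1 of the centred values as covariate, Benjamini-Hochberg adjustment over all peaks and a threshold of 0.1. DESeq2 1.42.0 and edgeR 4.0.16 (quasi-likelihood test) on the recovered reads were alternatives, besides those of the closing section. Tests are two-sided. A comparison of 3 against 3 mice has a smallest exact p of 0.1, so that no single peak was tested that way, and depth covers counting error only. The scripts were tested on simulated data.

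Peaks were named by a rule: the 10 with the highest mean, the 10 lower and 10 higher in AKO with the smallest limma p, those called by limma or DESeq2, and up to 3 of highest mean in each list. One peak that the rule names is not reported here. Members of a list beyond these 3, the genes with 3 peaks, Terc, Tbx4, Nkx3-2 and Mir1961 were named after their values were seen. CpG content and motifs were read from 300 bases around each midpoint in GRCm38, features from GENCODE M21, and promoter and microRNA sequences from RefSeq, where 1147 of 1153 genes matched a symbol. R 4.3.3 and Python 3.11.15 were used.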

Additional observations from a re-analysis of the deposited data

How the results depend on the processing

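The peaks of low signal limit these results: the median brown-only promoter peak held 53.5 to 97 reads in a sample. The median log2 fold change of 0.017 became 0.411 without PC1, 0.415 in DESeq2 without PC1 and −0.052 with the replicate number as a block besides PC1, and lay between −0.007 and 0.057 with 1 mouse left out. Limma called 0 peaks under every alternative fit run with it. The membership rules were read from the main fit, which called 0 of all 58558 peaks, so that their 0 was fixed in advance. Limma also did not call the peak inside the targeted gene (adjusted p 0.269), so that 0 calls do not show an absence of change. DESeq2 called 5 lower and 1 higher with PC1 and 7 and 25 without, and edgeR 3 and 0. With 1 mouse left out, a choice made after the data were seen, DESeq2 called 1 to 4 lower (1 without flox mouse 2 or AKO mouse 1) and 0 to 2 higher. The 70 lower and 58 higher peaks at an unadjusted p under 0.05 became 28 and 300 without PC1, 29 and 18 in DESeq2, 22 and 329 in DESeq2 without PC1, 46 and 36 in edgeR, and 51 to 71 and 34 to 80 with 1 mouse left out, with 34 higher without AKO mouse 1. Of the membership rules, 2000 bp gave 1864 peaks with 117 lower, an overlap of 50% of both peaks gave 2634 with 102 higher, and a mean of at least 50 normalized reads left 38 lower and 31 higher. Peaks with all AKO mice below or above all flox mice, 45 and 232, numbered 56 to 78 and 252 to 622 with 1 mouse left out. Of all peaks 12.3% to 16.9% were then below and 11.4% to 19.8% above, so that these shares rose over all peaks too. There were 622 above without flox mouse 3 (51.7%, and 19.8% of all peaks). There were 364 without AKO mouse 1 (30.2%, and 15.1% of all peaks) or without AKO mouse 3 (30.2%, and 14% of all peaks). Total reads in peaks as normalization gave 30 below (2.49%, and 6.73% of all peaks) and 235 above (19.5%, and 10.3% of all peaks). Over these settings the median without PC1 was 0.25 to 0.53. The cause of these shifts was not tested. For the calls and the counts at an unadjusted p in the alternative fits no share over all peaks is given, so that they describe the fits and not these peaks. Samples of like number shared only a number: their deviations from the genotype means correlated at 0.494, 0.063 and −0.236, and the block gave 79 lower and 55 higher with PC1 and a median of 0.411, 31 lower and 378 higher without. The other scalings, pseudocounts and filters kept each of these results within 1.5 times the count or the spread between mice.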

Other observations

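A few brown-only promoter peaks had log2 fold changes more negative than that of Ucp1 without being called, and they were named after their values were seen. Gm13283 held 50.2, 85.7 and 41.4 normalized reads in flox mice and 0, 36.7 and 46.1 in AKO mice, with a log2 fold change of −3.43 ± 1.70 (SE) in limma, and AKO mouse 1 alone had no read there. Trappc3l held 41.3, 39.2 and 29.8 in flox and 5.15, 25.1 and 15.4 in AKO, and all AKO mice were below all flox mice. The peaks of Dnah17 and Gata4, also of this kind, averaged 4.72 and 7.14 normalized reads over the 6 mice.

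Lif, which encodes a cytokine of the interleukin 6 family, had 3 brown-only promoter peaks. The one 481 bp upstream held 49.6, 56.9 and 45.3 in flox and 112, 63.7 and 70 in AKO, a log2 fold change of 0.92 ± 0.27 (SE) with an adjusted p of 0.476 in limma, and the one nearest the start held 45.3 to 58.4 in flox and 53.6 to 70 in AKO. Of the 3 Speg peaks, the one 792 bp downstream had −0.84 with PC1 and −0.30 without, with overlapping groups.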
